A study of Homo sapiens with 6 samples.

Results

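The aminoacyl-tRNA synthetases and the scaffold proteins that bind them were followed here as 35 genes of the 35009 in the deposited gene table. Their rows were found by gene symbol, from a list drawn up with earlier results of these data known. They comprise 17 cytosolic enzymes or enzyme subunits, 15 mitochondrial enzymes and 3 partner proteins of the multisynthetase complex. Of the cytosolic genes, 11 are commonly listed as targets of the transcription factor ATF4 and 6 are not. This division was also made with earlier results of these data known. A contrast between the 11 and the 6 is therefore a description and no independent support. All 35 symbols had a row, and all 35 passed the filter on low counts.

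The RNA was that of THP-1 cells (a human line of monocytic leukaemia) made into macrophages, and every library, in both groups, was labelled as exposed to ox-LDL, oxidised low-density lipoprotein, the particle that macrophages take up in atherosclerotic plaques. In the siMCT4 group (n = 3) small interfering RNA was directed at MCT4, the lactate exporter encoded by SLC16A3, and the control group (n = 3) carried the genotype label control. The labels do not say if an siRNA without a target was given to the controls, how long either treatment lasted, or whether libraries of a group were separate cultures, so p-values measure the spread between these libraries, which may be technical. All 6 libraries are from 1 cell line.

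Each synthetase joins 1 kind of amino acid to its tRNA at the cost of ATP, and the charged tRNA then carries the amino acid to the ribosome. Cytosolic and mitochondrial translation use largely separate enzymes, both encoded in the nucleus; GARS1 and KARS1 each encode both forms, EPRS1 charges both glutamate and proline tRNAs, and FARSA and FARSB are subunits of one enzyme. When amino acids run short or the endoplasmic reticulum is stressed, phosphorylation of the initiation factor eIF2 favours translation of ATF4, which is known to raise transcription of many cytosolic synthetases, amino acid transporters and amino acid synthesis genes. In human monocytic cells exposed to interferon-gamma, EPRS1 is also known to leave the complex and repress translation of inflammatory mRNAs.

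Library totals ran from 61880619 to 69181938 counts, and even counts made up 58.7% to 60.9% of counts between 2 and 41. Some pairs of mates may have added 2 counts each, but the share under 1 count per fragment was not computed. The targeted gene SLC16A3 (chr17:82217934-82240086, plus strand; ENSG00000141526) measured 10.8, 11.05 and 13.4 CPM in siMCT4 macrophages, against 115, 101 and 108 CPM in controls, where CPM are scaled counts per 1000000 counts of the library. Its log2 change was -3.20 (SE 0.102, edgeR adjusted p = 1.12e-06), and the exact two-sided permutation test over 20 assignments gave p = 0.1, the smallest that 3 against 3 allows. Of 19944 tested genes, 41.4% were called at an adjusted p under 0.05, 20.8% lower and 20.6% higher in siMCT4. On a scale of transcripts per 1000000 (TPM) the split of calls was less even, with 6020 higher and 2826 lower, against 4116 higher and 4144 lower by edgeR on the counts. Of 10 macrophage markers all were tested, 7 lower and 1 higher in siMCT4, and their summed level was 3305 to 3432 CPM in siMCT4 and 4267 to 4336 CPM in controls. In FPKM, fragments per kilobase per 1000000 fragments, CD68 averaged 432 in siMCT4 and 381 in controls, and CD14 1.82 in siMCT4 and 6.75 in controls. Of 14 markers of other cell types, 9 had a row and 5 were tested; PECAM1 and NCAM1 were lower and none was higher, EPCAM averaged 0.0114 FPKM in siMCT4 and 0 FPKM in controls, and their part in the results was not tested. Among 401 well expressed genes with a GC content of at least 64%, the median log2 ratio over the mean of the controls was -0.97 and -1.10 for siMCT4 libraries 1 and 2 but -0.22 in library 3, so results were also read without library 3, with library 3 alone and after a GC correction.

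The 11 cytosolic synthetases listed as ATF4 targets were all lower in siMCT4 macrophages, with median log2 change -0.54 against -0.0064 over all tested genes. In each of these 11 genes the 3 siMCT4 libraries lay below the 3 controls; of all tested genes, 27.8% did so. The median ratio to the control mean was -0.50, -0.50 and -0.58 on the log2 scale in siMCT4 libraries 1, 2 and 3. In bulk RNA, fewer cells of a type and less RNA per cell cannot be told apart.

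**Figure D1:**
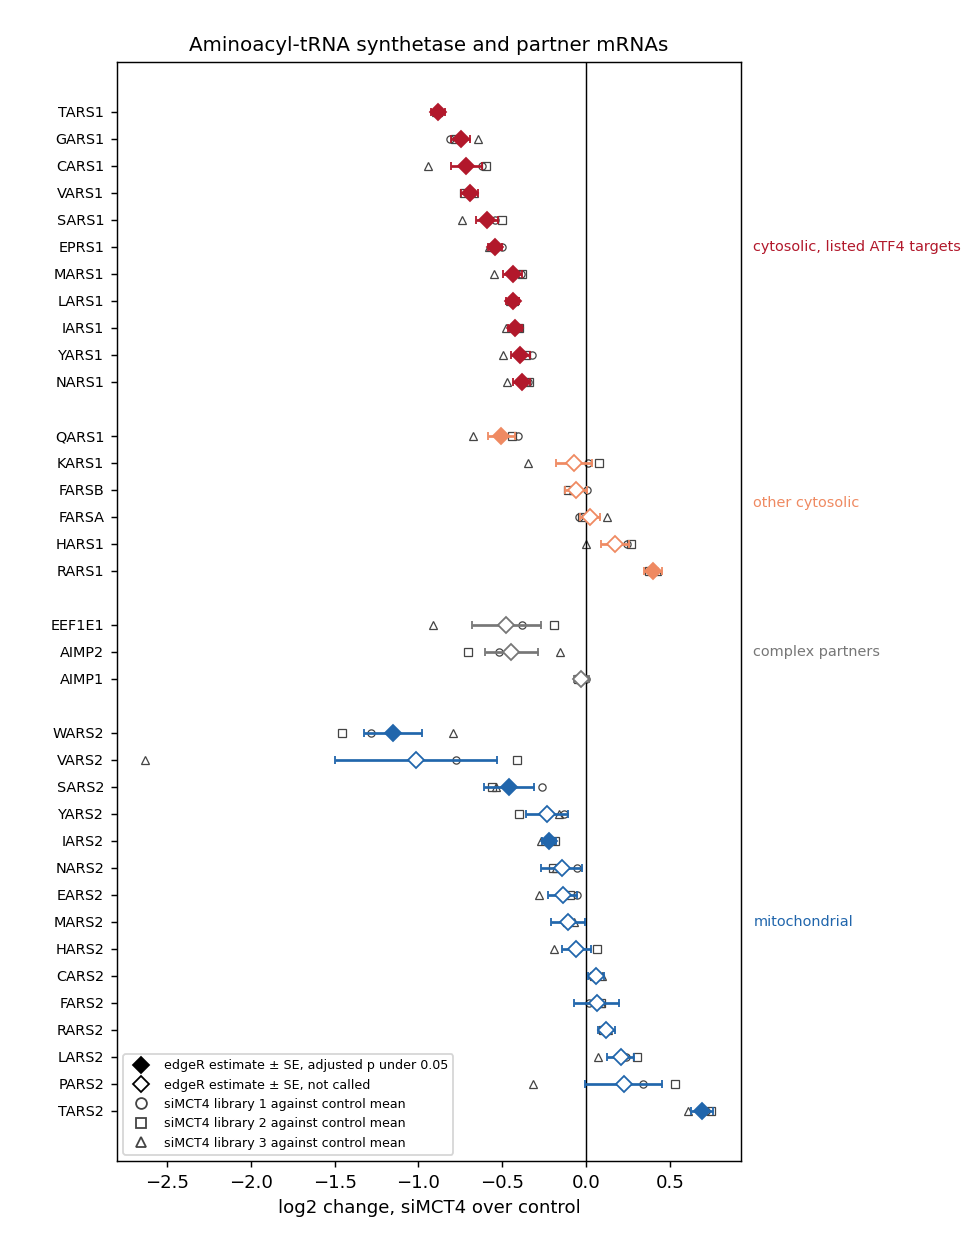
Log2 change (siMCT4 over control) with its standard error for each of the 35 genes, arranged by class; filled points passed an edgeR adjusted p under 0.05. All 11 listed ATF4 targets lie left of 0, while RARS1 and TARS2 are the called genes to the right.

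The element bound by ATF4 with C/EBP partners is known to lie around the transcription start of several of these genes. Sequence around the start is shown for the 6 of them that had a match to a searched motif. The motifs searched were TTGCATCA and the looser TGATGNAA, on both strands; the reverse complement of TTGCATCA is one form of TGATGNAA, so a match to the first is also a match to the second. RefSeq promoters (GRCh38.p14; 250 bases before to 50 after the start) were at hand for 31 of the 35 genes; LARS1, VARS1, VARS2 and YARS1 were not among them. Each stretch runs 5′ to 3′ on the gene's strand from 60 bases before to 24 after the start, with the match in capitals.
TARS1: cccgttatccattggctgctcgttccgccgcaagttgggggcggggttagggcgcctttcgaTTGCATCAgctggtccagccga
CARS1: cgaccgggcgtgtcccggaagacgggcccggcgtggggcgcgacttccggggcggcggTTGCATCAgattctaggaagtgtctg
IARS1: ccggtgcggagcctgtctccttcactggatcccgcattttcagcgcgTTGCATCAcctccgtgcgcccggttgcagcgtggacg
MARS1: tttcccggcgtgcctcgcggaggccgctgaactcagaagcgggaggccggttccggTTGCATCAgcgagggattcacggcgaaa
NARS1: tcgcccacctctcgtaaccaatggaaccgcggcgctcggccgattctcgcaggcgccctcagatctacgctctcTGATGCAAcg
GARS1: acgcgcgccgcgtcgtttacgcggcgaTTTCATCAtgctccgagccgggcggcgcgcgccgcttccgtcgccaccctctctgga
The stretches are those of TARS1 at chr5:33440905-33440988 (plus strand), CARS1 at chr11:3057400-3057483 (minus strand), IARS1 at chr9:92293674-92293757 (minus strand), MARS1 at chr12:57488008-57488091 (plus strand), NARS1 at chr18:57621813-57621896 (minus strand) and GARS1 at chr7:30594818-30594901 (plus strand).

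TTGCATCA was found in 5 of the 8 listed ATF4 targets with an entry: TARS1, CARS1, IARS1, MARS1 and, on the opposite strand, NARS1. In all 5 it lay between 13 bases before and 22 after the start. It was found in 0 of 6 other cytosolic enzymes, 0 of 14 mitochondrial enzymes and 0 of 3 partners, and in 0.866% of all 35116 promoter entries. Counted by gene with any entry, as for the members, the share was 1.08% of 27305 genes. TGATGNAA added GARS1 among the listed targets (6 of 8) and YARS2 among the mitochondrial enzymes (1 of 14), beside 4.46% of all genes. EPRS1 and SARS1, listed targets with an entry, held neither motif and are not shown. A match is a description of these letters and not a binding site, and listed targets are partly known through such elements. Which genes count as listed targets was also set with earlier results of these data known.

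TARS1, the threonine enzyme (chr5:33440696-33468091, plus strand; ENSG00000113407), had the smallest adjusted p of the 35 genes. It measured 131, 131 and 129.6 CPM in siMCT4 macrophages, against 242, 248 and 234 CPM in controls. The siMCT4 libraries had an SD of 0.975 CPM and lay far below every control, with log2 change -0.88 (SE 0.0414, edgeR adjusted p = 6.15e-06), which is 45.8% lower. GARS1, the glycine enzyme of both compartments, measured 278, 284 and 312 CPM in siMCT4 macrophages, against 508, 486 and 471 CPM in controls. Its groups did not overlap either, and its log2 change was -0.75 (SE 0.0569, edgeR adjusted p = 5.58e-05). GARS1-DT, annotated on the opposite strand, overlaps 14276 bases of the GARS1 gene span. It had 4105, 4741 and 4526 counts in siMCT4 libraries, against 5245, 5418 and 5432 in controls. Overlaps given in this text are of whole gene spans, introns included, and whether exons are shared was not examined. Since no source used here gives the strand setting of the counting, reads from any shared exons of opposite-strand pairs cannot be told apart. CARS1, for cysteine, measured 77.8, 79.2 and 62.2 CPM in siMCT4 macrophages, against 119, 123 and 117 CPM in controls, with log2 change -0.71 (SE 0.0922, edgeR adjusted p = 0.000729); siMCT4 library 3 was its lowest.

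VARS1, the valine enzyme, measured 141, 136 and 142 CPM in siMCT4 macrophages, against 237, 224 and 216 CPM in controls. The log2 change was -0.69 (SE 0.0492, edgeR adjusted p = 3.96e-05), but VARS1 is GC-rich (62.6% GC), and after GC correction the change was -0.21 (adjusted p = 0.127), no longer called; over the 18 alternatives its adjusted p ran from 9.61e-24 to 0.127. Its log2 ratio was -0.67 in library 3, beside -0.68 and -0.73 in libraries 1 and 2. SARS1, which charges serine and selenocysteine tRNAs, measured 302, 309.7 and 263 CPM in siMCT4 macrophages, against 429.8, 446 and 442 CPM in controls. With log2 change -0.59 (SE 0.0655, edgeR adjusted p = 0.000345) it was one of the most abundant of the 35 genes that fell. EPRS1, for glutamate and proline, was the highest of the 35 per kilobase in controls and measured 473, 459 and 449 CPM in siMCT4 macrophages, against 680.5, 684 and 649 CPM in controls. Its log2 change was -0.54 (SE 0.0416, edgeR adjusted p = 5.67e-05).

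The other 5 listed targets fell by less. LARS1, for leucine, measured 224, 224 and 220.3 CPM in siMCT4 macrophages, against 299, 304 and 303 CPM in controls, a log2 change of -0.44 (SE 0.0365, edgeR adjusted p = 8.52e-05). IARS1, for isoleucine, measured 484, 483 and 458 CPM in siMCT4 macrophages, against 639, 653 and 625 CPM in controls, a log2 change of -0.43 (SE 0.0414, edgeR adjusted p = 0.00018). MARS1, for methionine, measured 181, 182 and 161 CPM in siMCT4 macrophages, against 234, 233 and 243 CPM in controls, a log2 change of -0.44 (SE 0.0563, edgeR adjusted p = 0.000704). In all 3 the lowest control exceeded the highest siMCT4 library. YARS1, for tyrosine, measured 219.7, 214 and 195 CPM in siMCT4 macrophages, against 283, 275 and 267 CPM in controls, a log2 change of -0.39 (SE 0.0560, edgeR adjusted p = 0.00118). NARS1, for asparagine, measured 331, 332 and 304 CPM in siMCT4 macrophages, against 409, 428 and 425 CPM in controls, a log2 change of -0.38 (SE 0.0490, edgeR adjusted p = 0.000687), the smallest change of the 11. Apart from VARS1 under the GC corrections, each of the 11 was called lower in all 18 alternative fits.

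The 6 other cytosolic genes showed no shared direction: 1 was lower, 1 higher and 4 not called, with median log2 change -0.020. The 16.7% lower and 16.7% higher stand beside 20.8% and 20.6% of all tested genes, so these counts do not set the 6 apart. RARS1, for arginine (chr5:168486451-168519301, plus strand; ENSG00000113643), was higher in siMCT4, the single cytosolic enzyme so called. It measured 93.8, 91.9 and 94.8 CPM in siMCT4 macrophages, against 69.6, 74.8 and 68.3 CPM in controls. The groups did not overlap, and the log2 change of 0.40 (SE 0.0510, edgeR adjusted p = 0.000699) kept its direction and its call in all 18 alternatives. QARS1, for glutamine, measured 88.8, 86.6 and 73.8 CPM in siMCT4 macrophages, against 113, 124 and 117 CPM in controls, and was lower with log2 change -0.51 (SE 0.0784, edgeR adjusted p = 0.00178).

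HARS1, for histidine, measured 71.4, 72.5 and 60.3 CPM in siMCT4 macrophages, against 56.2, 63.5 and 61.5 CPM in controls. The groups overlapped through siMCT4 library 3, and the log2 change of 0.17 (SE 0.0851, edgeR adjusted p = 0.147) did not pass; without that library it was 0.28 (adjusted p = 0.00595), and over the 18 alternatives its adjusted p ran from 0.00595 to 0.903. KARS1, the lysine enzyme of both compartments, measured 103, 108 and 80.4 CPM in siMCT4 macrophages, against 97.96, 107 and 102 CPM in controls, a log2 change of -0.074 (SE 0.108, edgeR adjusted p = 0.624). Library 3 was again the low one: set alone against the controls, and assumed to vary as they did, it gave -0.33 (adjusted p = 0.0125), a value of that library and not of the group, and over the 18 alternatives its adjusted p ran from 0.0125 to 0.884. The subunits of the phenylalanine enzyme, FARSA and FARSB, had log2 changes of 0.021 (adjusted p = 0.808) and -0.061 (adjusted p = 0.491) by edgeR; after GC correction FARSA, with 60.3% GC, was at 0.31 (adjusted p = 0.00126), and over the 18 alternatives its adjusted p ran from 0.00126 to 0.902. These values for the subunits do not show that they were equal in both groups.

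Among all 17 cytosolic genes, 12 were lower (70.6%, beside 20.8% of all tested genes), 1 was higher and 4 were not called, with median log2 change -0.44. In siMCT4 libraries 1, 2 and 3 the median ratio was -0.40, -0.40 and -0.50. The count of lower genes was 12 without library 3 and 11 after GC correction; it was 13 with library 3 alone, where the single library is assumed to vary as the controls did. Over all 35 genes, 15 were lower (42.9%, beside 20.8% of all tested genes), 2 higher (5.71%, beside 20.6%) and 18 not called. The 48.6% called in either direction was near the 41.4% of all tested genes. The groups did not overlap in 21 of the 35, beside 55.0% of all tested genes. In 17 of the 35 the siMCT4 libraries lay below the controls, beside 27.8% of all tested genes.

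Members of the multisynthetase complex were called in both directions. Of its 10 members, 5 were lower (EPRS1, LARS1, IARS1, MARS1 and QARS1), 1 was higher (RARS1) and 4 were not called, with median log2 change -0.44. Of the 10 cytosolic enzyme genes outside it, 7 were lower and 0 higher, with median -0.49. The shares called were 60% in the complex and 70% outside it, beside 41.4% of all tested genes, of which 20.8% were lower and 20.6% higher. Of the 3 scaffold proteins, 0 were called by edgeR, 1 (AIMP2) had an unadjusted p under 0.05, and 1 (AIMP2) was called by DESeq2. AIMP1, the scaffold that is also secreted as a cytokine, had log2 change -0.029 (SE 0.0444, edgeR adjusted p = 0.637). AIMP2, which holds the complex together, measured 10.8, 9.51 and 13.9 CPM in siMCT4 macrophages, against 13.9, 15.6 and 17.1 CPM in controls. All 3 siMCT4 libraries of AIMP2 lay below the lowest control, library 3 barely so, but the log2 change of -0.45 (SE 0.157, edgeR adjusted p = 0.0563) missed the threshold, and it was called in 4 of 18 alternatives. AIMP2 shares 1588 bases with EIF2AK1 on the opposite strand, which had 7818 to 8857 counts per library, against 661 to 1083 for AIMP2. EEF1E1 (also called AIMP3) measured 9.58, 10.9 and 6.63 CPM in siMCT4 macrophages, against 12.7, 10.5 and 14.6 CPM in controls, with overlapping groups and log2 change -0.48 (SE 0.206, edgeR adjusted p = 0.104). Without siMCT4 library 3 its change was -0.27 (adjusted p = 0.191), and over the 18 alternatives its adjusted p ran from 0.0171 to 0.283, the lowest with library 3 alone.

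Fewer of the mitochondrial enzymes were called than of the cytosolic set, a difference described without a test. Of the 15, 3 were lower, 1 higher and 11 not called. Their median log2 change was -0.11 by edgeR, but 0.0028 on log2(FPKM + 1) and 0.090 on log2(TPM + 1), and the 20% called lower was near the 20.8% of all tested genes. They are expressed at lower levels, and their median SE was 0.101, against 0.0563 for cytosolic genes, so smaller changes pass less easily in them. Median GC content was 50.8% in the mitochondrial set and 48.6% in the listed ATF4 targets.

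TARS2, the mitochondrial threonine enzyme (chr1:150487414-150507602, plus strand; ENSG00000143374), was higher in siMCT4 while its cytosolic counterpart TARS1 was lower. It measured 43.4, 44.2 and 40.2 CPM in siMCT4 macrophages, against 25.5, 27.2 and 26.5 CPM in controls. The lowest siMCT4 library was well above the highest control, and the log2 change of 0.69 (SE 0.0635, edgeR adjusted p = 0.000141) was called in all 18 alternatives. WARS2, for tryptophan, measured 6.58, 5.83 and 9.25 CPM in siMCT4 macrophages, against 15.8, 16.1 and 16.3 CPM in controls, and fell by more than any other of the 35, with log2 change -1.15 (SE 0.173, edgeR adjusted p = 0.00152). Of its bases, 258 are shared with WARS2-AS1 on the opposite strand, which had 678, 587 and 629 counts in siMCT4 libraries and 572, 595 and 550 in controls. IARS2, for isoleucine, measured 153, 155 and 146 CPM in siMCT4 macrophages, against 172, 181 and 177 CPM in controls. Its change was small, -0.22 (SE 0.0441, edgeR adjusted p = 0.0057), and was not called on the FPKM or TPM scales, where it was -0.11 (adjusted p = 0.0963) with limma on log2(FPKM + 1) and -0.020 (adjusted p = 0.738) on log2(TPM + 1); over the 18 alternatives its adjusted p ran from 0.001 to 0.738.

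SARS2, for serine, measured 8.41, 6.85 and 6.94 CPM in siMCT4 macrophages, against 9.34, 11.97 and 9.22 CPM in controls. The log2 change of -0.46 (SE 0.151, edgeR adjusted p = 0.0439) was called in 3 of 18 alternatives and was -0.093 (adjusted p = 0.705) after GC correction, so it is uncertain; over the 18 alternatives its adjusted p ran from 0.0208 to 0.705. LARS2, for leucine, measured 38.7, 40.5 and 34.5 CPM in siMCT4 macrophages, against 34.7, 30.9 and 33.00 CPM in controls, with log2 change 0.21 (SE 0.0802, edgeR adjusted p = 0.0773); siMCT4 library 3 lay within the control range, and without it the change was 0.29 (adjusted p = 0.00679), and over the 18 alternatives its adjusted p ran from 0.00679 to 0.496. RARS2, for arginine, measured 45.8, 44.9 and 45.9 CPM in siMCT4 macrophages, against 41.1, 42.00 and 42.6 CPM in controls. Its groups did not overlap, but the log2 change was 0.12 (SE 0.0494, edgeR adjusted p = 0.0909), and without siMCT4 library 3 it was 0.14 (adjusted p = 0.0471), and over the 18 alternatives its adjusted p ran from 0.0123 to 0.462. PARS2, for proline, measured 5.29, 6.04 and 3.34 CPM in siMCT4 macrophages, against 3.89, 4.05 and 4.62 CPM in controls, with siMCT4 library 3 lowest of all 6 and log2 change 0.22 (SE 0.232, edgeR adjusted p = 0.483). Without siMCT4 library 3 the mitochondrial set held 4 higher genes (TARS2, LARS2, RARS2 and PARS2) and 3 lower ones (IARS2, WARS2 and VARS2).

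CARS2, for cysteine, measured 47.7, 48.2 and 49.8 CPM in siMCT4 macrophages, against 46.2, 46.8 and 46.9 CPM in controls, a log2 change of 0.059 (adjusted p = 0.378). MARS2, for methionine, measured 10.3, 10.3 and 10.7 CPM in siMCT4 macrophages, against 10.2, 11.5 and 12.02 CPM in controls, a log2 change of -0.11 (adjusted p = 0.434). Neither passed, although the CARS2 groups did not overlap. NARS2, for asparagine, measured 6.26, 5.68 and 5.75 CPM in siMCT4 macrophages, against 6.07, 6.78 and 6.73 CPM in controls, a log2 change of -0.15 (adjusted p = 0.38). YARS2, for tyrosine, measured 11.01, 9.13 and 10.8 CPM in siMCT4 macrophages, against 13.4, 12.1 and 10.8 CPM in controls, a log2 change of -0.23 (adjusted p = 0.177), with overlapping groups in both NARS2 and YARS2. YARS2 shares 18161 bases with DNM1L on the opposite strand. The remaining 3 had log2 changes of 0.062 (adjusted p = 0.745) for FARS2 (phenylalanine), -0.058 (adjusted p = 0.637) for HARS2 (histidine) and -0.14 (adjusted p = 0.225) for EARS2 (glutamate). All p-values in these sentences are edgeR's, adjusted over all tested genes.

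VARS2, the mitochondrial valine enzyme (chr6:30914205-30926459, plus strand; ENSG00000137411), had 246, 345 and 74 counts in siMCT4 libraries and 413, 476 and 397 in controls. An unnamed gene, ENSG00000288473, overlaps all 12255 bases of it on the same strand, and had 282, 163 and 595 counts in siMCT4 libraries against 79, 17 and 98 in controls. Every siMCT4 count of VARS2 lay below, and every siMCT4 count of the overlapping gene above, those of controls, and siMCT4 library 3, lowest for VARS2, was highest for the overlapping gene. Their sums were 528, 508 and 669 counts in siMCT4 libraries and 492, 493 and 495 in controls. VARS2 alone had log2 change -1.01 (SE 0.483, edgeR adjusted p = 0.136), and -0.56 (adjusted p = 0.0323) without siMCT4 library 3; the summed pair, a reading chosen after seeing the data, had 0.13 (SE 0.129, edgeR adjusted p = 0.469). The authors' counting could split reads between these genes, so the level of VARS2 is uncertain.

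**Figure D2:**
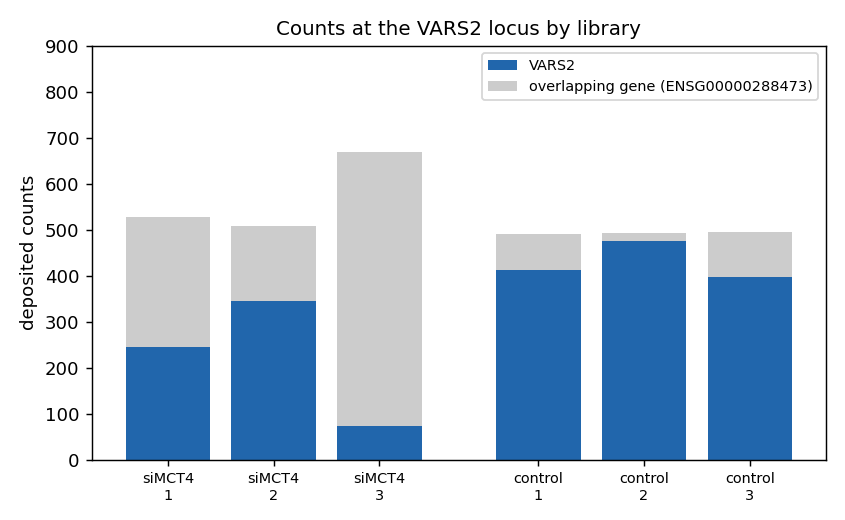
Counts in each library for VARS2, for the gene on the same strand that covers it, and for their sum, with siMCT4 libraries left of controls. VARS2 is lowest in siMCT4 library 3 (74 counts), where the overlapping gene is highest (595), and the 6 sums lie between 492 and 669.

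Setting each cytosolic enzyme over its mitochondrial counterpart, in FPKM and within a library, removes the scaling of the library. A pair's ratio also depends on the gene lengths behind the FPKM, which no source used here gives, but its change between groups does not. The TARS1 to TARS2 ratio was 2.90 ± 0.128 in siMCT4 and 8.65 ± 0.304 in controls (SD, n = 3 each), the largest change among the 12 pairs. The CARS1 to CARS2 ratio was 1.57 ± 0.233 in siMCT4 and 2.68 ± 0.0697 in controls, and the LARS1 to LARS2 ratio 3.54 ± 0.264 in siMCT4 and 5.54 ± 0.365 in controls. In these 3 pairs, and in the methionine, isoleucine and asparagine pairs, every siMCT4 ratio lay below every control ratio. In the arginine and histidine pairs every siMCT4 ratio lay above every control ratio. In the phenylalanine, serine, tyrosine and valine pairs the ratios of the groups overlapped. Taken singly, 55.0% of all tested genes did not overlap between the groups, and the share for ratios of other gene pairs was not computed. The NARS1 to NARS2 ratio was 221 ± 13.3 in siMCT4 and 260 ± 9.55 in controls. The MARS1 to MARS2 ratio was 7.22 ± 0.603 in siMCT4 and 9.11 ± 0.636 in controls and the IARS1 to IARS2 ratio 0.579 ± 0.00420 in siMCT4 and 0.668 ± 0.0169 in controls. In the arginine and histidine pairs the mean ratio was higher in siMCT4: the RARS1 to RARS2 ratio was 10.7 ± 0.0547 in siMCT4 and 8.78 ± 0.459 in controls, and the HARS1 to HARS2 ratio 0.604 ± 0.0243 in siMCT4 and 0.516 ± 0.0290 in controls. The HARS1 and HARS2 genes lie head to head and share 108 bases on opposite strands. HARS1 also shares 1090 bases with WDR55 on the opposite strand. The VARS1 to VARS2 ratio was also higher on average, 76.1 ± 70.4 in siMCT4 and 37.9 ± 4.61 in controls, with 40.6, 30.5 and 157 in siMCT4 libraries 1, 2 and 3, and shares the uncertainty of VARS2. No test was run on the ratios.

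**Figure D3:**
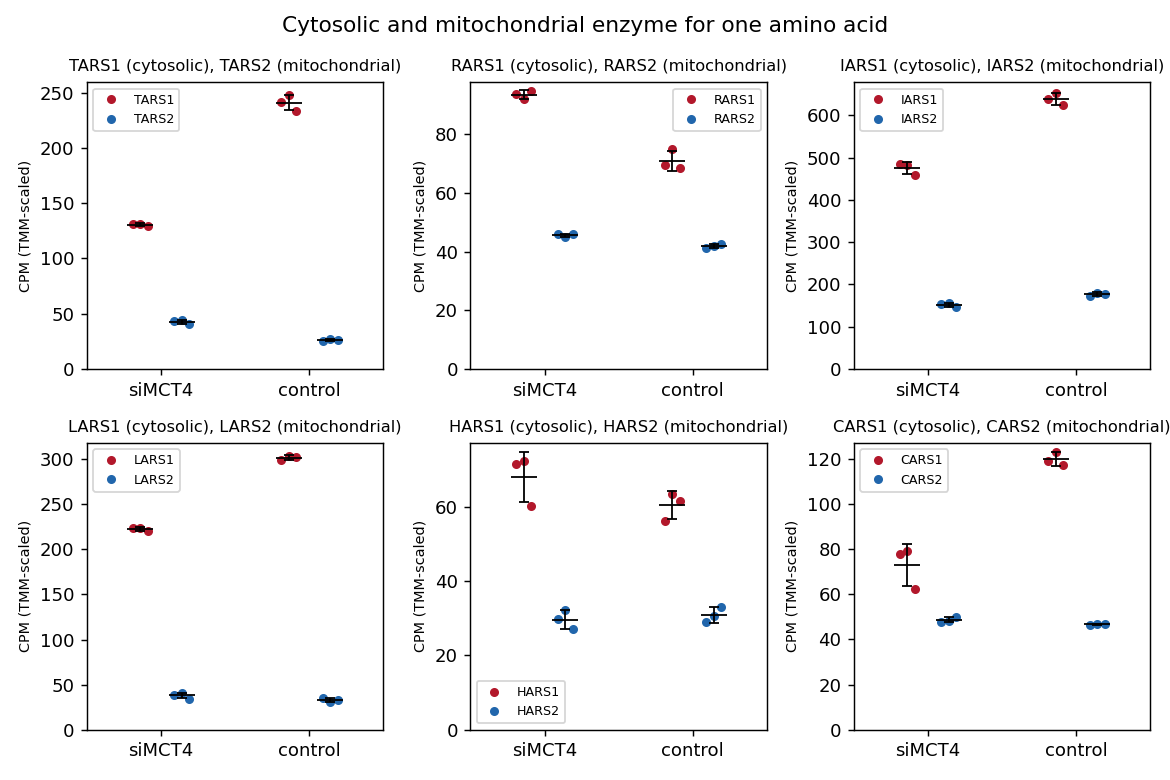
CPM of the cytosolic and the mitochondrial enzyme for 6 amino acids in each library, siMCT4 left of control, with bars at the group means. TARS1 lies at 131 ± 0.975 CPM in siMCT4 and 241 ± 7.13 CPM in controls, while TARS2 lies at 42.6 ± 2.12 CPM in siMCT4 and 26.4 ± 0.822 CPM in controls.

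Per length, the set spanned a wide range of levels. EPRS1 averaged 83.5 ± 2.31 FPKM in siMCT4 and 113 ± 4.33 FPKM in controls, SARS1 73.1 ± 6.43 FPKM in siMCT4 and 102 ± 2.64 FPKM in controls and NARS1 76.1 ± 3.95 FPKM in siMCT4 and 92.1 ± 2.67 FPKM in controls (SD, n = 3 each). IARS2, at 35.3 ± 1.12 FPKM in siMCT4 and 38.2 ± 1.25 FPKM in controls, was the highest mitochondrial enzyme, and NARS2 the lowest of the 35 in controls at 0.345 ± 0.0185 FPKM in siMCT4 and 0.354 ± 0.0221 FPKM in controls. Summed over the 11 listed ATF4 targets, the level was 384 ± 15.9 FPKM in siMCT4 and 522 ± 12.6 FPKM in controls. For the other 6 cytosolic genes it was 113 ± 3.19 FPKM in siMCT4 and 106 ± 4.70 FPKM in controls, and for the 15 mitochondrial enzymes 81.7 ± 2.88 FPKM in siMCT4 and 81.5 ± 2.32 FPKM in controls. The sum over all 35 genes was 598 ± 21.8 FPKM in siMCT4 and 731 ± 18.2 FPKM in controls. In CPM, the 11 listed targets summed to 2789.9 ± 81.8 CPM in siMCT4 and 4059 ± 59.5 CPM in controls, the other 6 cytosolic genes to 476 ± 22.6 CPM in siMCT4 and 486 ± 16.7 CPM in controls and the mitochondrial enzymes to 429.7 ± 13.4 CPM in siMCT4 and 449 ± 7.29 CPM in controls.

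ATF4 itself and the wider list of its targets were lower in the same libraries. Of 34 genes on the list, all tested, 27 were lower, 2 higher and 5 not called, with median log2 change -0.75. The share called lower was 79.4%, beside 20.8% of all tested genes. The list was compiled with earlier results of these data known, and is no independent support for the direction. ATF4 measured 328, 308 and 317 CPM in siMCT4 macrophages, against 495, 529 and 548 CPM in controls, a log2 change of -0.72 (SE 0.0511, edgeR adjusted p = 3.88e-05). Its mRNA level does not report its translation, which is the step that eIF2 phosphorylation acts on. TRIB3, a pseudokinase that restrains ATF4 output, measured 25.9, 24.9 and 40.7 CPM in siMCT4 macrophages, against 207, 203 and 203 CPM in controls, a log2 change of -2.75 (SE 0.186, edgeR adjusted p = 3.18e-05). Here siMCT4 library 3 was the highest of its group, yet far below every control. XPOT, which exports tRNAs from the nucleus, measured 164, 163 and 170.3 CPM in siMCT4 macrophages, against 271, 266 and 266 CPM in controls, a log2 change of -0.69 (SE 0.0397, edgeR adjusted p = 1.49e-05).

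Genes of amino acid synthesis on the list were called lower in part. ALDH18A1, for proline, at 0.25 (adjusted p = 0.0792) and CTH, for cysteine, at 0.21 (adjusted p = 0.106) by edgeR were not called, and were named after their values were seen. Also named so, but lower by edgeR, were PYCR1 at -1.18 (adjusted p = 0.000103) and PSPH at -0.77 (adjusted p = 0.00111). GPT2 at -0.73 (adjusted p = 8.93e-05) and SHMT2 at -0.61 (adjusted p = 0.00104) were lower by edgeR and named in the same way. ASNS, asparagine synthetase, averaged 51.03 ± 2.40 CPM in siMCT4 and 114 ± 2.22 CPM in controls (SD, n = 3 each), a log2 change of -1.16 (adjusted p = 4.98e-06) by edgeR. PHGDH and PSAT1, the first enzymes of serine synthesis, had edgeR log2 changes of -1.57 (adjusted p = 1.56e-05) and -0.90 (adjusted p = 1.34e-05). CHAC1, which degrades glutathione, was at -1.32 (adjusted p = 0.00277). Its log2 ratio to the control mean was -0.83 in siMCT4 library 3, beside -1.61 and -1.68 in libraries 1 and 2. SESN2, a leucine sensor upstream of mTORC1, was called lower by edgeR at -0.21 (adjusted p = 0.0225), but kept the call in 6 of 18 alternatives, and its direction turned after GC correction, at 0.029 (adjusted p = 0.781); over the 18 alternatives its adjusted p ran from 0.0129 to 0.944. SLC7A11, the cystine transporter, had edgeR log2 change 0.061 (adjusted p = 0.361) and was not called. DDIT3 (CHOP) measured 99.7, 110.2 and 79.3 CPM in siMCT4 macrophages, against 80.5, 94.5 and 101 CPM in controls, with overlapping groups and log2 change 0.065 (SE 0.132, edgeR adjusted p = 0.729); it shares 982 bases with MARS1 on the opposite strand, as ARHGAP9 shares 13282. The 2 higher genes, ATF3 at 0.87 (adjusted p = 5.68e-05) and CEBPB at 0.50 (adjusted p = 0.0351) by edgeR, are transcription factors that many other signals also induce, and were named after their values were seen. CEBPB lost its call in 3 of 18 alternatives, among them those without control library 1 and without control library 2.

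**Figure D4:**
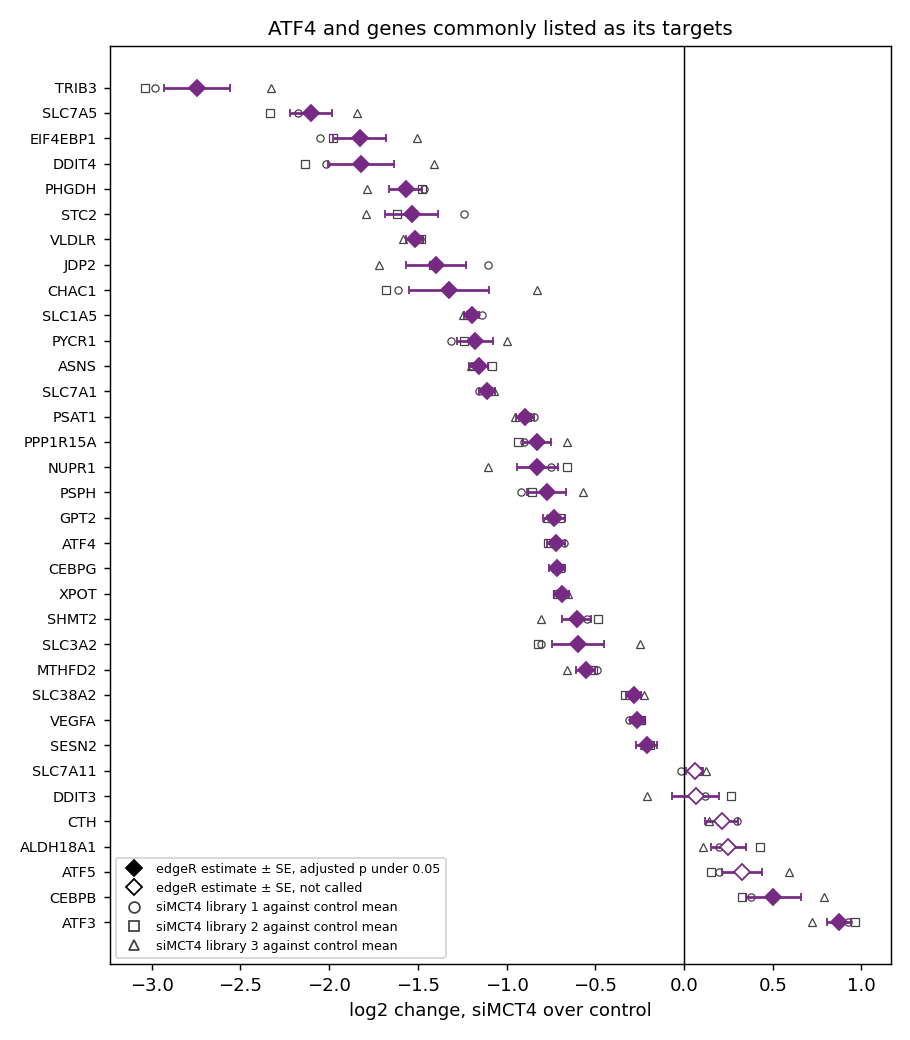
Log2 change (siMCT4 over control) with its standard error for the 34 genes of the ATF4 list; filled points passed an edgeR adjusted p under 0.05. TRIB3 at -2.75 lies farthest to the left, ATF3 at 0.87 farthest to the right, and DDIT3 and SLC7A11 lie near 0.

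The genes upstream did not fall as a list. They were the eIF2 kinases, eIF2 with its exchange factor, the phosphatase subunit PPP1R15B and GCN1. Of 14 tested, 8 were higher, PPP1R15B among them, 3 lower and 3 not called, with median log2 change 0.22. The 57.1% higher and 21.4% lower stand beside 20.6% and 20.8% of all tested genes. With siMCT4 library 3 alone, assumed to vary as the controls did, 3 were higher. EIF2AK2 (PKR), the kinase activated by double-stranded RNA and induced by interferon, averaged 252 ± 12.9 CPM in siMCT4 and 100.3 ± 4.95 CPM in controls (SD, n = 3 each), a log2 change of 1.33 (adjusted p = 4.64e-06) by edgeR. PPP1R15B, a regulatory subunit of the eIF2 phosphatase, was at 0.68 (adjusted p = 0.000118) by edgeR. The eIF2 subunits EIF2S3 and EIF2S2 were lower, at -0.46 (adjusted p = 0.000341) and -0.36 (adjusted p = 0.000486), as was EIF2B2 of the exchange factor, named after its value was seen, at -0.63 (adjusted p = 0.00351). Whether eIF2 was phosphorylated was not measured.

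Of 23 genes that act beside the synthetases in tRNA charging and delivery, 7 were lower, 2 higher and 14 not called, with median log2 change -0.023. The 39.1% called was near the 41.4% of all tested genes. The 4 with the smallest adjusted p were XPOT and 3 subunits of elongation factor 1, which takes charged tRNAs to the ribosome. EEF1A1 averaged 4883 ± 723 CPM in siMCT4 and 9742 ± 503 CPM in controls (SD, n = 3 each), a log2 change of -0.996 (adjusted p = 0.000278) by edgeR. EEF1B2 and EEF1D, of the exchange factor that recharges it with GTP, had edgeR log2 changes of -1.13 (adjusted p = 0.000171) and -1.16 (adjusted p = 0.000104). Elongation factor genes have processed pseudogenes of near-identical sequence, so their counts are uncertain to that extent.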

How the data were processed

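Polyadenylated RNA of 6 libraries was sequenced as paired ends after a dUTP strand-marking preparation, per the labels' protocols. Tools listed in the submitters' processing notes are cutadapt 1.9, known as a read trimmer, and HISAT2 2.2.1, an aligner, with the build GRCh38. How reads were assigned to genes, with which annotation and with which strand setting, is not given in the sources used. The authors' table holds, per the file headers, counts that are not normalized and FPKM for 35009 genes in 12 columns, with coordinates. Where 2 counts stand for 1 fragment, counting error is larger than the counts imply.

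edgeR 4.0.16 (R 4.3.3; quasi-likelihood, TMM, two-sided, group as the sole factor) was run on the counts as deposited for the 19944 genes that passed filterByExpr (smallest count 10, smallest total 15), with Benjamini-Hochberg adjustment over all of them. Genes were called below an adjusted p of 0.05; "lower" and "higher" refer to siMCT4. The common biological coefficient of variation was 0.219. SE is the log2 change over the square root of F. CPM values use TMM scaling. GC content came from GENCODE release 29 and was had for 96.8% of tested genes; it and RefSeq promoters were matched by gene ID or symbol.

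The other lists, like the members, were drawn up with earlier results of these data known. All members are named; values of every library are given for the 10 cytosolic or partner genes and 5 mitochondrial genes with the smallest adjusted p, for called members opposite to their class, and for pairs with 1 called enzyme. The rule also names SLC16A3, 10 ATF4-list genes and up to 4 genes each of the eIF2 and charging lists. Named outside it, after their values were seen, were ATF3, CEBPB, ALDH18A1, CTH, PYCR1, PSPH, GPT2, SHMT2, SLC7A5, SLC3A2, SLC1A5, SLC7A1 and SLC38A2 of the ATF4 list. So were EIF2B2 of the eIF2 list, and QRSL1, GATB, GATC, MTFMT, TSFM and TUFM of the charging list. Values of every library were likewise added for HARS1, KARS1, AIMP2, EEF1E1 and PARS2. The fits were tested on simulated data for recovery of changed genes, with far fewer changed genes than were called here. The GC correction was tested on a simulated shift that was alike in all siMCT4 libraries, unlike the one seen here. Alternatives were DESeq2 1.42.0, median-ratio scaling, no filter, limma 3.58.1 on log2(FPKM + 1), log2(FPKM + 0.1), log2(TPM + 1) and quantile-scaled values, GC correction, a replicate block with and without it, halved counts, each library left out, and siMCT4 library 3 alone. Same-numbered libraries had deviations correlated at -0.0616, -0.00295 and -0.0547. No shared deviation by number was seen, which does not exclude that same-numbered libraries were handled together.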

Additional observations from a re-analysis of the deposited data

How the results depend on the processing

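Cytosolic genes called lower numbered 12 by edgeR and 12 in every alternative except the GC correction and the replicate block with GC correction (11 each, VARS1 being lost) and siMCT4 library 3 alone (13, the single library being assumed to vary as the controls did). Of the 17 members called, 14 were called in the same direction in all 18 alternatives; the exceptions were IARS2, SARS2 and VARS1. Cytosolic genes called higher, 1 by edgeR, numbered 3 on log2(TPM + 1), 2 after GC correction, 2 with the replicate block and GC correction, and 1 to 2 with a library left out. Mitochondrial genes called lower, 3 by edgeR, numbered 1 on log2(FPKM + 1), 1 on log2(FPKM + 0.1) and 1 on log2(TPM + 1), and 2 to 3 with a library left out. Mitochondrial genes called higher, 1 by edgeR, numbered 3, 3 and 4 on those scales, and 1 to 4 with a library left out, the 4 being without siMCT4 replicate 3.

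The cytosolic median of -0.44 was -0.30 on log2(FPKM + 1), -0.33 on log2(FPKM + 0.1), -0.23 on log2(TPM + 1), -0.37 after quantile scaling and -0.44 to -0.38 with a library left out. The mitochondrial median of -0.11 was 0.0028, 0.0041, 0.090 and -0.039 under the same 4, and -0.10 to -0.051 with a library left out. The TPM scale moved the median of all genes to 0.13; relative to it, the cytosolic median was -0.37 and the mitochondrial -0.044. AIMP1 turned positive and called on log2(TPM + 1), at 0.17 (adjusted p = 0.0322), and TUFM turned positive there, at 0.015 (adjusted p = 0.836); SESN2 did so after GC correction, at 0.029 (adjusted p = 0.781), and with the block added, at 0.031 (adjusted p = 0.711). The cause was not tested.

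The summed level of the 35 genes, siMCT4 over control, was 0.818 in FPKM and 0.744 in CPM. With the replicate number as a block, which pairs libraries by number alone, all genes gave 3341 higher and 3580 lower calls, the cytosolic set 12 lower and the mitochondrial set 2 lower. Leaving out a library gave 3160 to 4814 lower and 3409 to 4894 higher calls over all genes, and -3.28 to -3.12 for SLC16A3. ATF4-list genes called higher, 2 by edgeR, numbered up to 6 (FPKM and TPM scales). Low-count mitochondrial enzymes such as NARS2, FARS2 and VARS2 limit what could be detected.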

Other observations

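Mitochondria make glutaminyl-tRNA without a glutamine synthetase of their own: glutamate is first placed on the tRNA and then amidated by the complex of QRSL1, GATB and GATC. QRSL1 had edgeR log2 change -0.015 (adjusted p = 0.853), GATB 0.24 (adjusted p = 0.0678) and GATC 0.12 (adjusted p = 0.503), none of them called. MTFMT, which formylates the initiator methionyl-tRNA, was at 0.022 (adjusted p = 0.915), and TSFM, the exchange factor of the mitochondrial elongation factor, at 0.61 (adjusted p = 0.188). TUFM, that elongation factor, was called lower at -0.19 (adjusted p = 0.0413), but kept the call in only 3 of 18 alternatives.

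Amino acid transporters of the ATF4 list, named after their values were seen, had edgeR log2 changes of -2.10 (adjusted p = 1.44e-05) for SLC7A5 and -0.60 (adjusted p = 0.0147) for its partner SLC3A2, which together import leucine and other large neutral amino acids. SLC1A5, for glutamine, was at -1.20 (adjusted p = 2.16e-06), SLC7A1, for arginine and lysine, at -1.11 (adjusted p = 2.96e-06), and SLC38A2, for small neutral amino acids, at -0.28 (adjusted p = 0.00168). SLC7A5 averaged 21.9 ± 3.89 FPKM in siMCT4 and 87.3 ± 3.28 FPKM in controls (SD, n = 3 each).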
